A study of Mus musculus with 9 samples.

Results

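The genes described here are 36 genes of glucose uptake, glycolysis, lactate handling, pyruvate entry into mitochondria and the pentose phosphate pathway. They form a named list of pathway genes, grouped by pathway step, that was chosen with earlier results of these data known. All 36 were found among 55536 gene identifiers of the deposited count table and all 36 passed the filter on low counts, alongside 14684 genes tested in total. The smallest count of any of them in any library was 119. RNA was sequenced from CD4+ T cells that came from the spleens of wild-type males, 6 to 12 weeks old. Every culture was stimulated with beads carrying anti-CD3 and anti-CD28 and with 5 ng/mL murine IL-2, so no unstimulated culture enters these comparisons. For 18 h the cells also received PBS, exosomes from BMDM (the usual abbreviation of bone marrow-derived macrophages) of wild-type mice (called WT exosomes here), or BMDM exosomes of ApoE-deficient mice (EKO exosomes), each exosome preparation at 2e+09 particles per mL. Each group had 3 libraries. The T cells carried the wild-type genotype in all groups, and ApoE deficiency applied only to the donors of the EKO exosomes. The submitters call the replicates biological, but no label ties a library to a mouse, so p-values reflect only variation among cultures, which may be technical. No group was given exosomes of another source, so exosome addition as such and BMDM exosomes in particular cannot be told apart.

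Glycolysis splits glucose into pyruvate in the cytosol. Glucose enters through GLUT transporters, is trapped by hexokinases, committed by phosphofructokinase and converted by the lower enzymes into pyruvate, which is either reduced to lactate and exported or passed to mitochondria, while the pentose phosphate pathway diverts glucose 6-phosphate to NADPH and ribose. T cells activated through CD3 and CD28 are known for raising glucose uptake and lactate output, and many of these genes are textbook targets of HIF-1 and MYC.

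Total counts ranged from 25792975 to 32971791 per library. Summed T cell markers were 2869 to 2967 CPM (reads of a gene scaled to a common library total) in PBS, 2862 to 2939 with WT exosomes and 3005 to 3075 with EKO exosomes, and Cd4 was abundant throughout. The 14 macrophage and monocyte markers summed to 19.4 to 29.8, 22.9 to 30.2 and 24.8 to 29.8 CPM in the same order, with Marco, Cd163 and C1qa at 0 in every library. Csf1r passed the test as higher with EKO exosomes, at only 1.9 to 2.5 CPM against 0.65 to 1.08 CPM in PBS. Of the other markers Cd3e was called higher with EKO exosomes and the neutrophil gene S100a9, at or near 0 throughout, lower with WT exosomes. Mki67, a marker of cycling cells, was at 483.5 to 496.9 CPM in PBS, 317 to 342.5 with WT exosomes and 341 to 356 with EKO exosomes, without overlap against PBS. Summed CD8 markers were 11.2 to 12.2, 8.31 to 10.2 and 9.56 to 10.4 CPM, and B cell markers 6.22 to 6.75, 5.40 to 6.66 and 4.99 to 8.80 CPM. The part of these differences in the results below was not tested. The EKO libraries held fewer detected genes (19038 to 19518) than the other libraries (19989 to 20568), and EKO replicates 1 and 3 stood furthest apart on the leading components, so the count is also given without them.

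The promoters of 3 genes are printed. Slc16a3 and Hk2 were lower with both kinds of exosome. Eno3 was the only gene of the list to pass the test as higher. These 3 are the called genes with the largest fold changes against PBS, among those whose window lies at most 30 bases inside an annotated exon. Slc2a3, with a larger fold change than Eno3 and Hk2, had no promoter in the set used. The exon limit was added to the rule first planned. Each sequence is the 250 bases before the RefSeq start (GRCm38.p6), read 5′ to 3′ on the gene's strand. Capitals mark ACGTG or GCGTG on either strand (CACGT and CACGC when read on the other strand), the core letters of HIF-1 sites.
Slc16a3 promoter, chr11:120948817-120949066, plus strand: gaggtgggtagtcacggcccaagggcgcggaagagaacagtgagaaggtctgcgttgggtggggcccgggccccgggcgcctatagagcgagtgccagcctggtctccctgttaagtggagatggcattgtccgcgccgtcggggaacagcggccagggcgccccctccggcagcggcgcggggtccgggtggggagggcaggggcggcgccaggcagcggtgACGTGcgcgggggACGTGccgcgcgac
Hk2 promoter, chr6:82774455-82774704, minus strand: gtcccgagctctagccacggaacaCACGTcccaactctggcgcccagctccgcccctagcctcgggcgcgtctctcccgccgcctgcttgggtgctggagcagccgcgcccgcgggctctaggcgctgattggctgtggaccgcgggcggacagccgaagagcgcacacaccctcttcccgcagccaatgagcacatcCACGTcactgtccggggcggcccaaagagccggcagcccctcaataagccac
Eno3 promoter, chr11:70656926-70657175, plus strand: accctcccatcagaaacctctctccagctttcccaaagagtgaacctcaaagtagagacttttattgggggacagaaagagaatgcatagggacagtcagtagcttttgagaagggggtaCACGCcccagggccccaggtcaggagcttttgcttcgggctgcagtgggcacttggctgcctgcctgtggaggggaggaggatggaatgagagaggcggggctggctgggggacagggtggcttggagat
Slc16a3 carried ACGTG at 27 and 14 bases before its start, and Hk2 carried it at 226 and 52 bases before. Eno3 held GCGTG at 130 bases before its start. Of 35 members found in the promoter table, 9 (25.7%) held ACGTG and 24 (68.6%) held GCGTG within 250 bases, against 16.6% and 28.2% of all 32851 promoters. Among 10019 tested genes matched by symbol the shares were 22.1% and 45.9%. CACGTG, the E-box letters that contain ACGTG, stood in 2 members (5.7%), Pfkfb3 and Slc16a1, against 6.0% of all promoters and 8.4% of those tested genes. A match describes letters only.

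Several genes of glucose uptake, glycolysis and lactate handling were lower in CD4+ T cells given either kind of exosome than in cells given PBS. Lower with both were the glucose transporters Slc2a1 and Slc2a3, the upper glycolysis genes Hk2, Pfkl, Aldoa, Aldoc and Tpi1, the pyruvate kinase gene Pkm, the lactate dehydrogenase gene Ldha and the lactate exporter gene Slc16a3. With EKO exosomes 12 of 36 genes fell and 0 rose (edgeR quasi-likelihood test, Benjamini-Hochberg adjusted p under 0.05 over all tested genes), where 2.87% of all tested genes fell and 2.21% rose (5.08% together). With WT exosomes 12 fell and 1 rose, where 3.14% and 1.83% of all genes did (4.97% together). All libraries of the exosome group lay below all PBS libraries for 14 genes with EKO exosomes and 18 with WT exosomes, where 10.6% and 11.6% of all genes did, and above them for 1 gene in each, where 9.94% and 10.6% did. Among genes of at least 5 CPM on average, a level that all 36 reached, 4.18% were lower and 3.34% higher with EKO exosomes, and 4.61% lower and 2.76% higher with WT exosomes. The median log2 fold change of the 36 was -0.09 with EKO exosomes and -0.11 with WT exosomes, with 28 and 31 of the 36 below zero, against medians near 0 and 50% and 49.2% of all tested genes below zero. These comparisons share the PBS libraries and are not independent. The list was chosen with earlier results of these data known, so its counts beside those of all genes are a description only. In total 15 genes passed in at least 1 comparison and 10 were lower against PBS with both exosomes. The shares of all tested genes given here are also the background for the counts by pathway step below. Without EKO replicates 1 and 3 together, 7 genes were lower with EKO exosomes, and without PBS replicate 2, 8 were. In bulk RNA fewer cells of a type and less RNA per cell cannot be told apart.

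**Figure D1:**
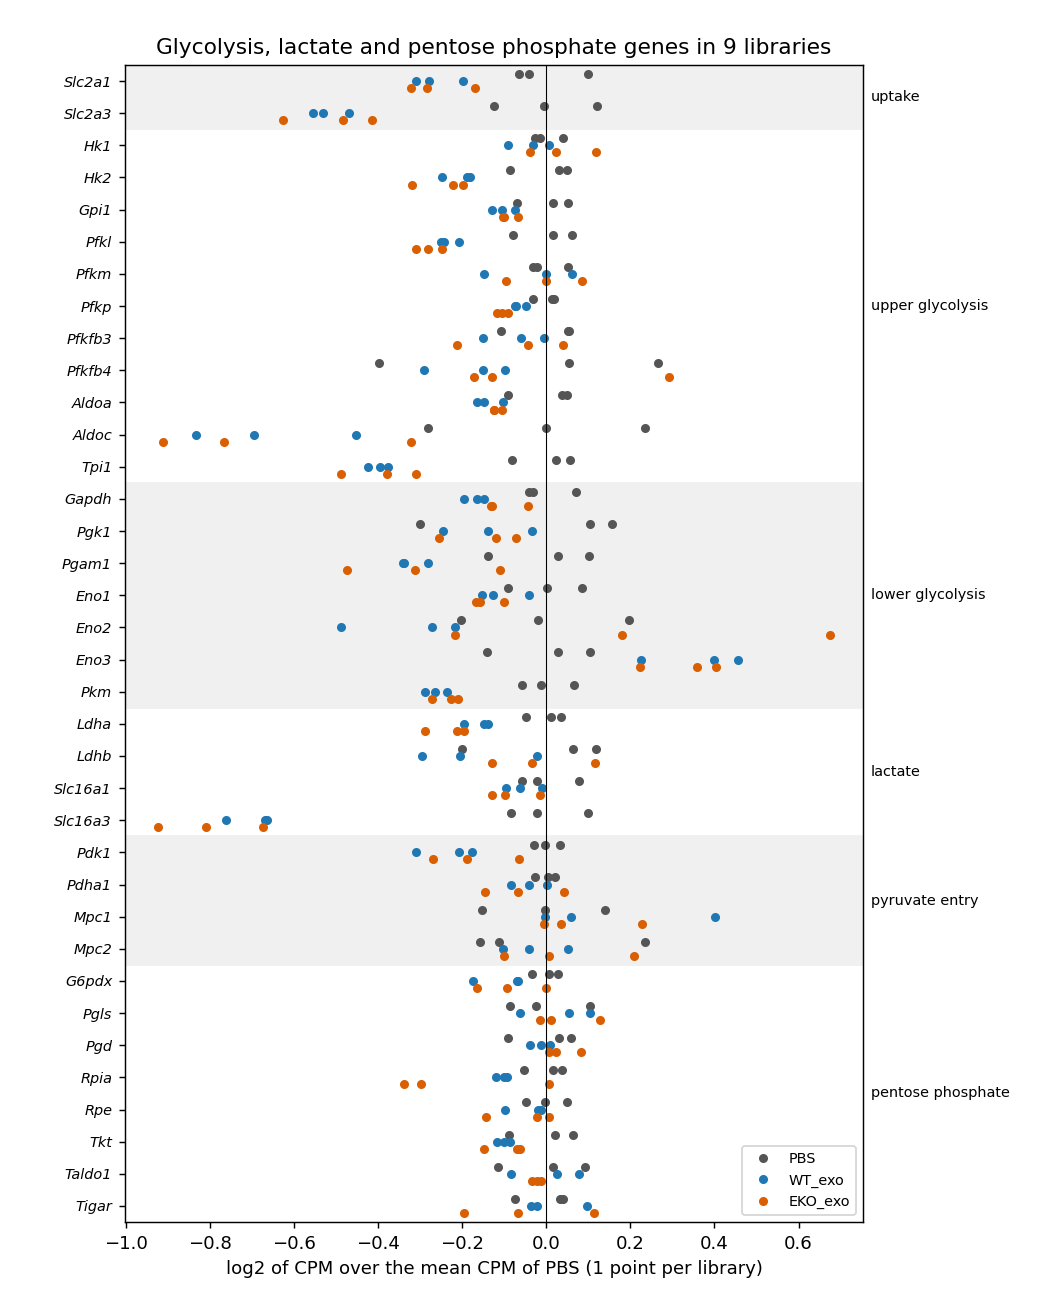
Each point is 1 library, plotted as log2 of its CPM over the mean CPM of the 3 PBS libraries (x axis), for the 36 genes by pathway step (y axis); colours mark PBS, WT exosomes (WT_exo) and EKO exosomes (EKO_exo). Slc2a1, Slc2a3, Tpi1, Pkm, Ldha and Slc16a3 show both exosome groups entirely left of PBS, Eno3 shows them right of it, and all pentose phosphate genes overlap PBS with EKO exosomes, with 2 EKO libraries of Rpia well to the left.

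Both glucose transporters of the list fell. Slc2a3 encodes GLUT3, a high-affinity transporter (chr6:122727809-122801640, GRCm38). It measured 57.4, 62.6 and 52.8 CPM in PBS, 39.9, 41.6 and 39.2 CPM with WT exosomes and 37.3, 41.2 and 43.2 CPM with EKO exosomes. Every exosome library lay below every PBS library, while the exosome groups overlapped. The log2 fold change against PBS was -0.52 ± 0.0769 (SE) with WT exosomes (edgeR adjusted p = 6.92e-05) and -0.51 ± 0.0772 with EKO exosomes (edgeR adjusted p = 0.000119). Slc2a1 encodes GLUT1, the main transporter induced on T cell activation. Its levels were 164, 180.3 and 161 CPM in PBS, 136, 139 and 147 CPM with WT exosomes and 138, 135 and 149.7 CPM with EKO exosomes, again without overlap against PBS. It fell by 16.5% with WT exosomes (log2 fold change -0.26 ± 0.0503, edgeR adjusted p = 0.00136) and fell by 16.2% with EKO exosomes (-0.26 ± 0.0505, edgeR adjusted p = 0.00192).

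In upper glycolysis, from hexokinase to triose phosphate isomerase, 5 of 11 genes fell with WT exosomes and 6 of 11 with EKO exosomes. Hk2, the inducible hexokinase, was at 251, 254 and 232 CPM in PBS, 217, 207 and 216 CPM with WT exosomes and 211, 214 and 197 CPM with EKO exosomes. The exosome libraries all lay below PBS, with log2 fold changes of -0.21 ± 0.0429 (edgeR adjusted p = 0.00294) for WT exosomes and -0.25 ± 0.0431 (edgeR adjusted p = 0.000529) for EKO exosomes. Its constitutive partner Hk1 did not pass in either comparison: the PBS cultures gave 339.6, 337 and 352 CPM, the WT exosome cultures 345, 322 and 336 CPM, and the EKO exosome cultures 372, 334 and 348 CPM. The groups overlapped for Hk1, and its log2 fold changes were -0.04 and 0.04, with 95% intervals of -0.12 to 0.04 and -0.04 to 0.12.

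Phosphofructokinase catalyses the committed step. Its liver-type gene Pfkl was at 331, 342 and 310.5 CPM in PBS, 284, 276 and 277 CPM with WT exosomes and 265, 269.7 and 276 CPM with EKO exosomes. Neither exosome group overlapped PBS, and the log2 fold changes were -0.23 ± 0.0378 (edgeR adjusted p = 0.000186) and -0.28 ± 0.0379 (edgeR adjusted p = 2.63e-05). The platelet-type gene Pfkp, the most abundant per kilobase of the 3, measured 719, 716 and 694 CPM in PBS, 686, 673 and 675 CPM with WT exosomes and 660, 666 and 654 CPM with EKO exosomes. All exosome libraries were below PBS, but only the EKO comparison passed (-0.10 ± 0.0283, edgeR adjusted p = 0.0272; for WT exosomes -0.07, edgeR adjusted p = 0.234). The Pfkp call was lost without EKO replicate 1, EKO replicate 3, PBS replicate 1 or PBS replicate 2 (edgeR adjusted p up to 0.124). Muscle-type Pfkm, at 33.1, 31.4 and 31.3 CPM in PBS, 33.4, 28.8 and 32.0 CPM with WT exosomes and 29.9, 33.9 and 31.9 CPM with EKO exosomes, overlapped in all groups. Pfkfb3 and Pfkfb4, whose enzymes make the phosphofructokinase activator fructose 2,6-bisphosphate, and the isomerase gene Gpi1 did not pass. Over all libraries they ranged from 91.1 to 109.6, from 5.76 to 9.29 and from 723.6 to 820.4 CPM. Gpi1 was just outside the threshold with WT exosomes (-0.10, edgeR adjusted p = 0.051, no overlap with PBS) and passed there under upper-quartile scaling, the 5 CPM filter, DESeq2, the fit of only those groups, and without EKO replicate 1, EKO replicate 3 or PBS replicate 3 (adjusted p from 0.00702 to 0.0457). With EKO exosomes it was at -0.09 (edgeR adjusted p = 0.0957) and passed without PBS replicate 3 (0.0158). Exons of Pfkp and Pitrm1 overlap on opposite strands, and since the strand setting of the counting is not given in the sources used here, their reads cannot be told apart there. Other members overlap annotated genes too. Among them, on the same strand, are Pgls with Fam129c (776 bases) and Pkm with Gm49759 (767 bases). Pairs on opposite strands include G6pdx with Ikbkg (418 bases) and Pfkm with Senp1 (18 bases).

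Tpi1, which interconverts the triose phosphates (chr6:124810586-124814296), had the ninth smallest p of all tested genes in both comparisons with PBS. Its levels were 528, 541 and 491 CPM in PBS, 395, 387 and 400.5 CPM with WT exosomes and 370.4, 399.6 and 419 CPM with EKO exosomes. The lowest PBS library stood well above the highest exosome library. The log2 fold change was -0.40 ± 0.04 with WT exosomes (edgeR adjusted p = 2.43e-07) and -0.39 ± 0.04 with EKO exosomes (edgeR adjusted p = 3.79e-07). Aldoa, the main aldolase, measured 1488, 1501 and 1361 CPM in PBS, 1309, 1293 and 1351 CPM with WT exosomes and 1330, 1331 and 1349 CPM with EKO exosomes. Its groups did not overlap, although the lowest PBS library lay close to the exosome libraries. The differences were small, -0.14 ± 0.0299 (edgeR adjusted p = 0.00454) and -0.12 ± 0.03 (edgeR adjusted p = 0.0182). The Aldoa call was lost without PBS replicate 2 in both comparisons, and with EKO exosomes also without PBS replicate 1 or EKO replicate 2. Aldoc, the brain-type aldolase, was scarce at 6.93, 9.92 and 8.42 CPM in PBS, 5.20, 6.16 and 4.73 CPM with WT exosomes and 4.95, 6.74 and 4.48 CPM with EKO exosomes. All libraries with exosomes were below PBS, with log2 fold changes of -0.65 ± 0.19 (edgeR adjusted p = 0.0425) and -0.65 ± 0.191 (edgeR adjusted p = 0.0449), close to the threshold. Leaving out 1 library ended the Aldoc call in 5 of 9 cases for WT exosomes and 7 of 9 for EKO exosomes, with edgeR adjusted p up to 0.28 and 0.265. In both comparisons these included PBS replicate 2, PBS replicate 3 and each WT exosome replicate, and for EKO exosomes also EKO replicates 1 and 3.

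In lower glycolysis, from glyceraldehyde 3-phosphate to pyruvate, 2 of 7 genes fell with each kind of exosome and Eno3 rose with WT exosomes. Pkm encodes pyruvate kinase M, which makes pyruvate and ATP (chr9:59656368-59679375). The PBS libraries held 1606, 1695 and 1556 CPM of Pkm, the WT exosome libraries 1325, 1348 and 1375 CPM, and the EKO exosome libraries 1384, 1341 and 1400 CPM. Every exosome library was below every PBS library. The log2 fold changes were -0.26 ± 0.0284 (edgeR adjusted p = 5.6e-07) and -0.24 ± 0.0284 (edgeR adjusted p = 4.21e-06). Counts by gene cannot separate the PKM1 and PKM2 splice forms.

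Gapdh, the dehydrogenase used widely as a reference gene, passed only with WT exosomes. It was at 269.7, 289.5 and 268 CPM in PBS, 241, 249 and 246 CPM with WT exosomes and 252, 252 and 268 CPM with EKO exosomes, so that 1 EKO library reached the edge of the PBS range. The log2 fold change was -0.17 ± 0.0392 with WT exosomes (edgeR adjusted p = 0.00802) and -0.10 with EKO exosomes (edgeR adjusted p = 0.159). Eno1, the main enolase, passed only with EKO exosomes: it measured 356, 377 and 334 CPM in PBS, 326, 345 and 319.8 CPM with WT exosomes and 319, 316 and 332 CPM with EKO exosomes. The EKO libraries were just below the PBS range and the WT exosome libraries overlapped it, with log2 fold changes of -0.14 ± 0.0407 (edgeR adjusted p = 0.0399) and -0.11 (edgeR adjusted p = 0.16). The Gapdh call was lost without PBS replicate 2 or WT exosome replicate 1, and the Eno1 call without EKO replicate 1 or 2, PBS replicate 1 or 2, or WT exosome replicate 1 or 3. A test between the exosome groups did not pass for Gapdh or Eno1, so they are not shown to respond differently to the exosomes.

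Eno3, the muscle-type enolase (chr11:70657202-70662513), went the other way. It stood at 18.5, 21.9 and 20.8 CPM in PBS, 23.9, 27.0 and 28.0 CPM with WT exosomes and 27.0, 26.2 and 23.9 CPM with EKO exosomes. All 6 exosome libraries lay above all PBS libraries. The log2 fold change was 0.36 ± 0.0996 with WT exosomes (edgeR adjusted p = 0.0293) and 0.33 ± 0.1 with EKO exosomes, which did not pass (edgeR adjusted p = 0.0522). The first call was lost without PBS replicate 1 or 3 or WT exosome replicate 2 or 3. Neuronal-type Eno2 was scarce and variable, at 4.96, 6.54 and 5.63 CPM in PBS, 4.91, 4.07 and 4.73 CPM with WT exosomes and 9.11, 4.92 and 6.47 CPM with EKO exosomes. Its exosome groups did not overlap each other, but their difference of 0.58 ± 0.207 on the log2 scale did not pass (edgeR adjusted p = 0.552). Pgk1, phosphoglycerate kinase, at 19.98 to 27.4 CPM over all libraries, and Pgam1 did not pass in any comparison. Pgam1, phosphoglycerate mutase, had log2 fold changes of -0.32 and -0.29 at levels of only 8.6 to 12.8 CPM.

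**Figure D2:**
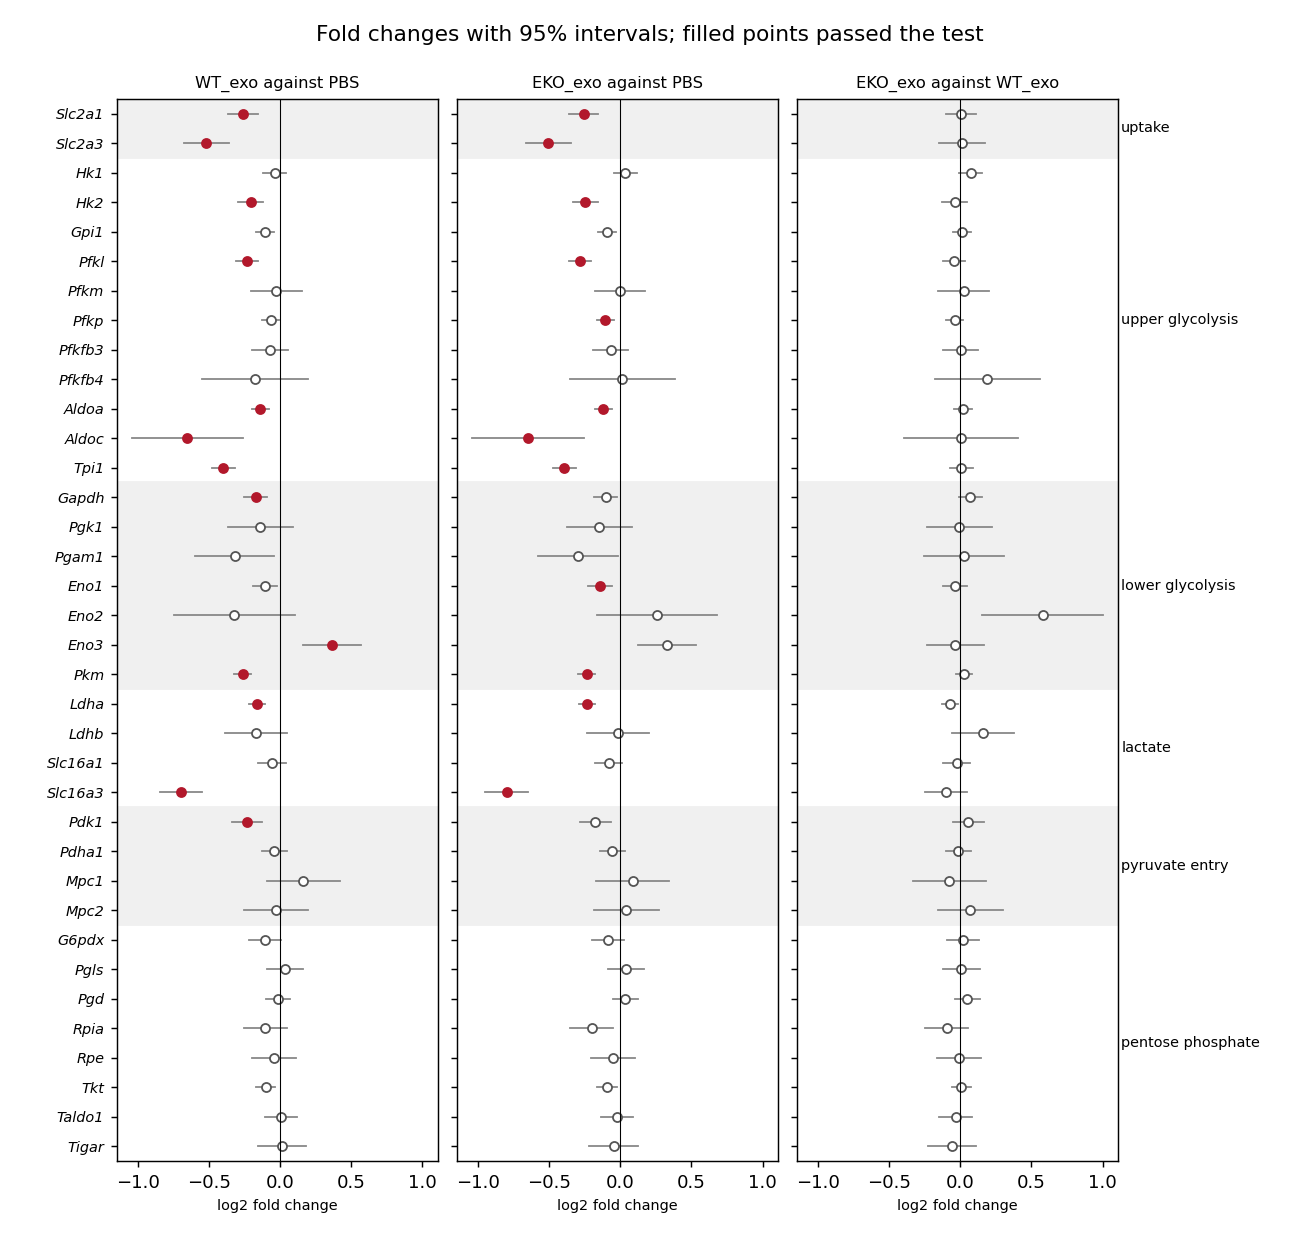
Log2 fold change (x axis) of each of the 36 genes (y axis), with 95% confidence intervals. The panels show WT exosomes against PBS, EKO exosomes against PBS and EKO against WT exosomes. Filled points passed the edgeR test at an adjusted p under 0.05. Slc16a3, Aldoc, Slc2a3 and Tpi1 lie furthest to the left in both comparisons with PBS, and Eno3 lies to the right there.

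The largest fall of the list in both comparisons was that of Slc16a3, which encodes MCT4, the lactate exporter of strongly glycolytic cells (chr11:120948480-120960868). It measured 75.2, 81.7 and 72.0 CPM in PBS, 48.1, 45.0 and 47.9 CPM with WT exosomes and 40.2, 43.5 and 47.8 CPM with EKO exosomes. The PBS libraries stood far above the exosome libraries, which overlapped each other. It fell by 38.3% with WT exosomes (log2 fold change -0.70 ± 0.0715, edgeR adjusted p = 2.62e-07) and fell by 42.5% with EKO exosomes (-0.80 ± 0.0721, edgeR adjusted p = 4.49e-08). By p it ranked 12 and 5 among the tested genes. Slc16a1 encodes MCT1, which carries lactate and pyruvate in both directions, and it overlapped between all groups: it gave 151, 147 and 162 CPM in PBS, 152, 146 and 143 CPM with WT exosomes and 139.9, 143 and 151 CPM with EKO exosomes. Its log2 fold changes were -0.06 and -0.08, with 95% intervals of -0.15 to 0.04 and -0.18 to 0.02.

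Ldha, the lactate dehydrogenase chain that favours lactate formation (chr7:46841475-46855627), was at 1335, 1358 and 1282 CPM in PBS, 1203, 1157 and 1195 CPM with WT exosomes and 1085, 1156 and 1143 CPM with EKO exosomes. Neither exosome group overlapped PBS, and every EKO library lay below every WT exosome library by a narrow margin. The log2 fold changes against PBS were -0.16 ± 0.0286 (edgeR adjusted p = 0.000589) and -0.23 ± 0.0287 (edgeR adjusted p = 6.04e-06). Between the exosome groups the difference was -0.07 ± 0.0287, which did not pass (edgeR adjusted p = 0.639). Ldhb, the heart-type chain, overlapped in all groups at 26.6, 21.3 and 25.6 CPM in PBS, 21.3, 24.1 and 19.9 CPM with WT exosomes and 22.4, 26.6 and 23.9 CPM with EKO exosomes, with no test passed.

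At pyruvate entry, 1 of 4 genes fell with WT exosomes and 0 of 4 with EKO exosomes. Pdk1 encodes the kinase that inhibits pyruvate dehydrogenase. It stood at 135, 133 and 139 CPM in PBS, 117, 119.9 and 109 CPM with WT exosomes and 112, 129.5 and 119 CPM with EKO exosomes. All exosome libraries were below PBS, yet only the WT exosome comparison passed (-0.23 ± 0.0522, edgeR adjusted p = 0.0063; for EKO exosomes -0.17 ± 0.0523, edgeR adjusted p = 0.0507), and that call was lost without WT exosome replicate 3. The count of 0 with EKO exosomes turned on the processing: Pdk1 passed there under upper-quartile scaling, no filter, the 5 CPM filter, DESeq2 and without EKO replicate 2 (adjusted p from 0.0133 to 0.0433). Pdha1, a subunit of pyruvate dehydrogenase, and the mitochondrial pyruvate carrier genes Mpc1 and Mpc2 did not pass, with log2 fold changes from -0.05 to 0.16. Their levels over all libraries were 221 to 252, 13.6 to 19.97 and 19.9 to 26.1 CPM.

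None of the 8 pentose phosphate genes passed in any comparison in the edgeR analysis reported or with DESeq2. At an unadjusted p under 0.05 stood 1 of them with WT exosomes (Tkt) and 2 with EKO exosomes (Tkt and Rpia). These are G6pdx, the entry enzyme that makes NADPH, Pgls, Pgd, which makes the second NADPH, Rpia and Rpe, which interconvert pentose phosphates, Tkt and Taldo1 of the non-oxidative arm, and Tigar, a phosphatase that lowers fructose 2,6-bisphosphate. Their log2 fold changes against PBS ran from -0.20 (Rpia, EKO exosomes) to 0.04 (Pgls, EKO exosomes). The medians were -0.03 with WT exosomes and -0.05 with EKO exosomes. With WT exosomes all libraries lay below all PBS libraries for 2 of the 8, G6pdx and Rpia, where 11.6% of all tested genes did. With EKO exosomes this held for 0 of the 8, where 10.6% of all tested genes did. Tkt, the most abundant of them per kilobase, came closest, at -0.10 (edgeR adjusted p = 0.0877) and -0.09 (edgeR adjusted p = 0.121). It passed as lower in both comparisons without PBS replicate 3 (edgeR adjusted p = 0.00813 and 0.014), and with WT exosomes also without EKO replicate 1, with the filter at 5 CPM and when only those groups were fitted (edgeR adjusted p = 0.0424, 0.0363 and 0.0337). Rpia was at 51.0, 52.5 and 64.8 CPM with EKO exosomes against 66.2, 65.2 and 62.2 CPM in PBS, with 1 EKO library inside the PBS range, and it passed as lower without that library, EKO replicate 3 (edgeR adjusted p = 0.00556). The other levels ran from 87.7 to 100.9 CPM for G6pdx, 73.7 to 85.5 for Pgls, 206.5 to 232.9 for Pgd, 37.6 to 43.0 for Rpe, 709.8 to 821.8 for Tkt, 98.4 to 113.6 for Taldo1 and 34.6 to 42.9 for Tigar.

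**Figure D3:**
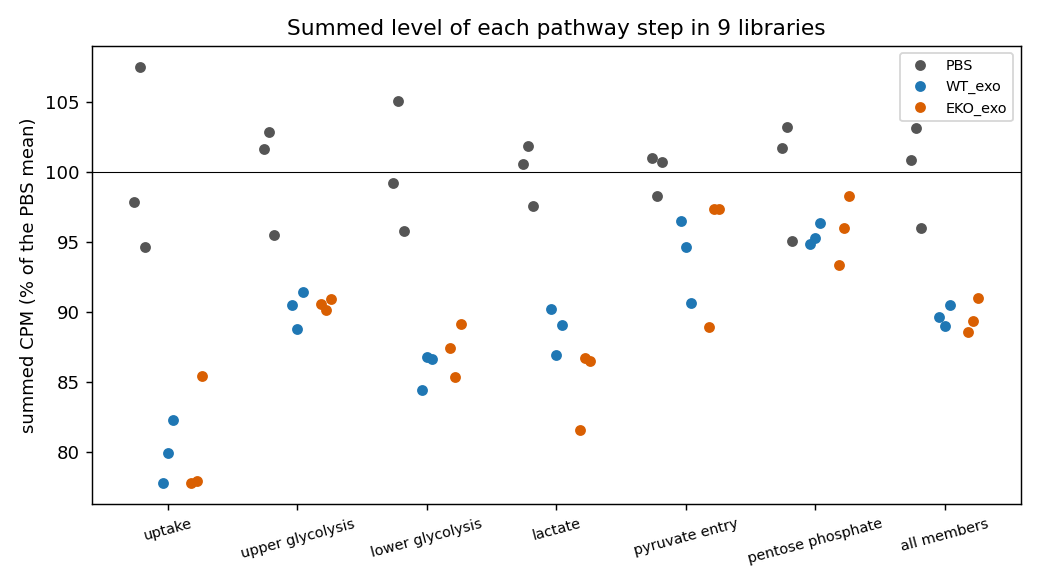
Summed CPM of the genes of each pathway step, as a percentage of the PBS mean (y axis), in each library of the 3 groups (points). The uptake genes stood at 77.8 to 82.3% with WT exosomes and 77.7 to 85.4% with EKO exosomes, while the pentose phosphate sum overlapped PBS with either exosome.

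Added up, the 36 genes took 1.05% of each PBS library on average, and 0.94% with either exosome. Relative to the PBS mean their sum was 89.0 to 90.5% with WT exosomes and 88.6 to 91.0% with EKO exosomes, against 96.0 to 103.2% among the PBS libraries. Lower glycolysis stood at 84.4 to 86.8% and 85.4 to 89.2%, and the lactate genes at 86.9 to 90.2% and 81.5 to 86.7%. The pentose phosphate sum was 94.8 to 96.3% and 93.3 to 98.3%, overlapping the PBS range of 95.1 to 103.2%. These sums are weighted by the most abundant genes and were given no test. Among the 14 genes called lower, PBS replicate 2 was the highest PBS library for 12 and PBS replicate 3 the lowest for 12. Among all 36 genes these counts were 22 and 24. The order over all tested genes was not counted. A shift of the whole library and one of this pathway are therefore not told apart here.

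Within families, the isozymes did not fall equally, measured as shares of CPM per kilobase of principal transcript. MCT4 made up 33.7% ± 2.47 (SD, n = 3) of the Slc16a1 and Slc16a3 total in PBS, 24.6% ± 0.811 with WT exosomes and 23.6% ± 0.855 with EKO exosomes. The Hk2 share of hexokinase was 33.4% ± 1.65, 30.8% ± 0.272 and 29.2% ± 1.52. The Slc2a3 share of the GLUT pair was 21.96% ± 0.617, 19.1% ± 0.944 and 19.2% ± 0.965. In these 3 families both exosome groups lay below every PBS library. The Pfkl share of phosphofructokinase, at 32.5%, 30% and 29.8%, was likewise lower without overlap. The Pfkp share was 63.4%, 65.6% and 65.6%, although Pfkp itself did not rise. Its log2 fold changes were -0.07 with WT and -0.10 with EKO exosomes, against -0.23 and -0.28 for Pfkl. The Eno3 share of enolase was higher without overlap, at 6.87% ± 0.567, 9.27% ± 0.764 and 9.24% ± 0.715. Ldhb was the minor chain at 2.45%, 2.43% and 2.83% of lactate dehydrogenase: its WT exosome libraries overlapped PBS, while the EKO libraries (2.72 to 3.02%) lay narrowly above the PBS libraries (2.08 to 2.635%). Aldoc was under 1% of aldolase everywhere. The size of a share depends on the length used: per kilobase of all exons joined, a scale chosen after seeing the data, the PBS share was 50.6% for Hk2, 14.9% for Eno3, 14.2% for Slc2a3, 44% for Pfkl and 29.3% for Slc16a3. A change of length multiplies the ratio of a pair alike in every library, so it cannot reorder the libraries. The unchanged order for Slc16a3, Hk2 and Slc2a3 on that scale is therefore no check. Pfkl and Eno3, in families of 3, also stayed on the same side of PBS without overlap. Which hexokinase was the more abundant in PBS turned on the length. The shares follow from the gene values above and were not tested separately.

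**Figure D4:**
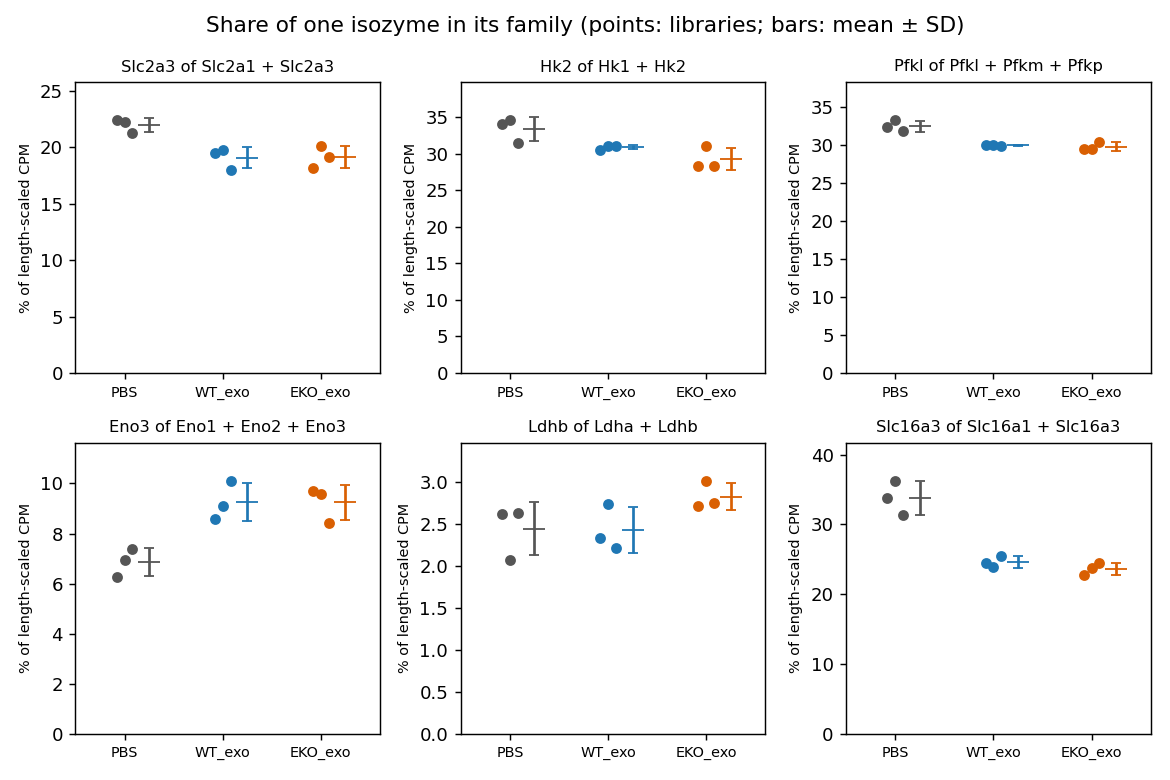
Share of 1 isozyme in the length-scaled CPM of its family (y axis, percent) in each library (points), with the mean ± SD of 3 libraries (bars), for PBS, WT exosomes and EKO exosomes. The Slc16a3 share lies at 33.7% in PBS and at 24.6% and 23.6% with the exosomes, and the Ldhb share overlaps between PBS and WT exosomes and lies narrowly above PBS with EKO exosomes (2.72 to 3.02% against 2.08 to 2.635%).

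Between EKO and WT exosomes, 0 of 36 genes passed in either direction, where 0.00681% of all tested genes were lower and 0.0272% higher (0.0341% together). The median log2 difference was 0.01, with 15 genes below and 21 above zero. DESeq2 also called 0, and by edgeR 2 genes had an unadjusted p under 0.05, Eno2 (0.00927) and Ldha (0.0195). Without overlap of the libraries, 2 of 36 genes were lower with EKO exosomes (Pfkp and Ldha) and 2 higher (Gapdh and Eno2). Of all tested genes 5.97% were lower and 5.88% higher without overlap. These counts are near the background and nothing is read from them. The 95% interval of the difference was -0.25 to 0.05 for Slc16a3, -0.15 to 0.17 for Slc2a3, -0.07 to 0.09 for Tpi1, -0.03 to 0.09 for Pkm and -0.13 to -0.01 for Ldha on the log2 scale. For Eno2 it was 0.16 to 1.005. An interval that contains 0 does not show that the exosomes acted alike.

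Levels between genes can be compared per kilobase of transcript, with the limit that reads of some genes match other places in the genome. In PBS the most abundant were Aldoa at 959.6, Ldha at 750.2 and Pkm at 666 CPM per kb, followed by Tpi1 at 323, Gpi1 at 274 and Tkt at 244. Gapdh stood at 194, Eno1 at 175, Pgk1 at 13.5 and Pgam1 at 6.73 CPM per kb. Several of these genes have copies elsewhere: of all 50-base windows of the principal transcript, 82.5% of Gapdh, 72.2% of Eno1, 68.0% of Pgk1, 41.5% of Pgam1 and 34.4% of Pkm are also found in another annotated gene. How multiply matching reads were counted is not given in the sources used here, and its part in these levels was not tested. Of the 23 genes with under 1% shared windows, 7 were lower with each kind of exosome, among them Slc16a3, Slc2a1, Slc2a3, Hk2 and Pfkl. With WT exosomes 1 of the 23 was higher. Of all tested genes 3.14% were lower and 1.83% higher with WT exosomes, and 2.87% were lower with EKO exosomes. Of the 8 genes with 1 to 30% and the 5 with over 30% shared windows, 3 and 2 were lower with each kind.

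**Figure D5:**
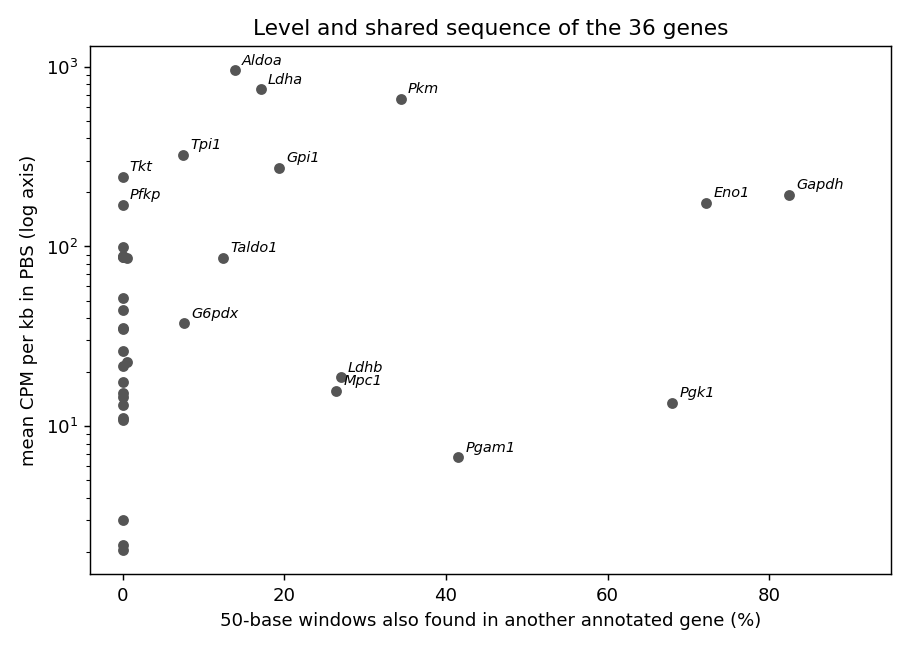
Mean CPM per kb in the 3 PBS libraries (y axis, log scale) against the percentage of 50-base transcript windows that also occur in another annotated gene (x axis), 1 point per gene. Gapdh, Eno1 and Pgk1 have the most shared windows, and Pgk1 and Pgam1 lie at 13.5 and 6.73 CPM per kb.

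Of 77 further genes of these pathways and their regulators, 58 were tested. With EKO exosomes 1 fell and 2 rose, and with WT exosomes 4 fell and 1 rose. These are 3 and 5 of 58 genes, where 5.08% and 4.97% of all tested genes were called, so the EKO count is near the background and nothing is read from it. Gys1, glycogen synthase of muscle type, fell with EKO exosomes (-0.31 ± 0.0687, edgeR adjusted p = 0.00642) and was at -0.22 with WT exosomes (edgeR adjusted p = 0.0547). With WT exosomes the falls were Slc16a6 (-0.30), a monocarboxylate transporter family member, Emb (-0.19) and Bsg (-0.15), chaperones that bring MCT proteins to the membrane, and Pgm1 (-0.19), phosphoglucomutase. Their edgeR adjusted p-values were 0.0349, 0.0248, 0.0434 and 0.0425. With EKO exosomes these 4 were also below zero, at -0.20, -0.17, -0.09 and -0.14, and did not pass. Among regulators, Myc rose slightly with both exosomes, by 0.12 (edgeR adjusted p = 0.0228) and 0.14 (edgeR adjusted p = 0.00891), and Trp53 with EKO exosomes, by 0.13 (edgeR adjusted p = 0.0162). Hif1a, the oxygen-regulated chain of HIF-1, was at -0.09 and -0.10 and did not pass (edgeR adjusted p = 0.0915 and 0.0518).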

How the data were processed

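The authors deposited 1 table of read counts per Ensembl gene for 9 libraries of polyadenylated RNA. Reads were aligned with STAR 2.7.5c to GRCm38, per the submitters' processing notes; which counting tool, annotation and strand setting followed is not given in the sources used here. The deposited counts were used as they stand. Symbols, lengths and coordinates came from GENCODE on GRCm38, and promoters from RefSeq (GRCm38.p6). Of the 2 identifiers named Aldoa, the one lying in RefSeq's Aldoa was used.

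Genes passing filterByExpr (minimum count 10) were scaled by TMM and tested with the quasi-likelihood test of edgeR 4.0.16 (R 4.3.3) in 1 model of 3 groups, with Benjamini-Hochberg adjustment over all 14684 genes and calls at adjusted p under 0.05. CPM use the TMM-scaled library size, and intervals are 95% with 6 residual and 21.1 prior degrees of freedom. The procedure was also run on simulated data. The changes set there were larger than those of many called genes here, such as Slc2a1, Hk2 and Pkm, so that run does not cover them.

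The members and lists were chosen with earlier results of these data known. Values per library are given for members that passed in at least 1 comparison and for every member of an isozyme family in which 1 passed, and the rest by range. Of the other pathway lists, genes that passed are named. Hif1a, Tkt, Rpia, Pgam1 Mki67 and the genes marking cell types were named after their values were seen. Alternatives were RLE and upper-quartile scaling, no filter or a mean of 5 CPM, DESeq2 1.42.0, fits of only the groups compared, the replicate number as a block, and each library left out. Libraries of 1 group differed by more than sampling noise (chi-square per degree of freedom 5.23 to 9.58).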

Additional observations from a re-analysis of the deposited data

How the results depend on the processing

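No gene of the list that passed the test changed direction under any alternative. Slc2a1, Slc2a3, Hk2, Pfkl, Tpi1, Pkm, Ldha and Slc16a3, 8 genes, passed in both comparisons with PBS whichever of the 9 libraries was left out. The number of members called higher was 0 with EKO exosomes, 1 (Eno3) with the filter at a mean of 5 CPM or with DESeq2, and 0 to 1 when 1 library was left out; with WT exosomes it was 0 to 1, Eno3 being lost without PBS replicate 1, PBS replicate 3, WT exosome replicate 2 or 3. Without EKO replicates 1 and 3 together, an alternative chosen after seeing the data, 7 members were lower with EKO exosomes instead of 12, and Hk2, Pfkp, Aldoa, Aldoc and Eno1 no longer passed. That fit holds 1 EKO library, assumed to vary like the other groups. Without PBS replicate 2 alone, 8 passed with EKO exosomes and 10 with WT exosomes. The edgeR adjusted p rose to at most 0.311 for Eno1, 0.124 for Pfkp and 0.169 for Aldoa with EKO exosomes, and to 0.111 for Gapdh, 0.0756 for Pdk1, 0.2 for Eno3 and 0.0686 for Aldoa with WT exosomes, in single omissions. Fitting only the groups compared left 9 members with EKO exosomes (Pfkp, Aldoc and Eno1 lost) and 15 with WT exosomes (Gpi1 and Tkt gained), and without a filter Pfkp was lost and Pdk1 gained with EKO exosomes. Upper-quartile scaling added Pdk1 with EKO and Gpi1 with WT exosomes, the 5 CPM filter Eno3 and Pdk1 with EKO and Gpi1 and Tkt with WT exosomes, and DESeq2 Eno3 and Pdk1 with EKO and Gpi1 with WT exosomes. With the replicate number as a block, 11 members passed with EKO exosomes (Eno1 was lost) and 13 with WT exosomes; same-numbered libraries did not deviate together (correlations -0.02 to 0.02), so the numbers were not taken as pairs. DESeq2 called 9.68% and 9.15% of all tested genes against PBS, and the 5 CPM filter 10.5% and 9.7%, where 5.08% and 4.97% were called in the analysis reported.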
